A study of Mus musculus with 11 samples.

Results

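The comparison described here set the 6 retinal libraries that carried a tamoxifen-inducible Cre recombinase against the 5 libraries without it, with the Six6 genotype held as a block. It used all 11 libraries of the series. The RNA came from retinas of NMRI mice at E13.5 (E, embryonic day). All groups carried floxed Six3 alleles, and tamoxifen was given to all dams (0.15 mL, at 20 mg/mL) at E10.5 and again at E11.5. The Cre-free side held 3 WT libraries (floxed Six3, no Cre) and 2 Six6KO libraries (floxed Six3, no Cre, Six6 null from the germ line). The Cre side held 3 Six3KO libraries (floxed Six3 with CAGGCre-ERTM) and 3 DKO libraries (floxed Six3 with CAGGCre-ERTM, Six6 null). Each library came from a pair of retinas, and the design text calls the 3 per genotype biological replicates; 1 Six6KO sample had been removed by the submitters for high duplication. Every Cre library also lost Six3, and no group carried Cre with Six3 intact, so an effect of Cre and an effect of Six3 loss cannot be told apart.

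CAGGCre-ERTM joins Cre to a tamoxifen-binding piece of the mouse estrogen receptor under a broadly active promoter, so it is present in the retina and in the tissue around it. Cre that enters the nucleus can cut genomic DNA at sites that resemble its target, and cells answer cut DNA mainly through p53. This transcription factor raises genes that stop the cell cycle, such as Cdkn1a, and genes that drive cell death, such as Pmaip1. DNA that reaches the cytoplasm can also switch on interferon genes. Interferon receptors then act through transcription factors that include IRF9 and bind a short repeated motif, the interferon-stimulated response element, in front of their target genes. Retinal progenitors at this stage divide rapidly, with S phase genes copying DNA and replication-dependent histone genes packing it. In the same cells Six3, a homeodomain transcription factor, supports progenitor identity.

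The libraries held 7807744 to 16403191 reads in genes. The first principal component carried 46.3% of the variance of log2 expression and set rh026 (Six3KO) and rh020 (Six6KO) at one end. The tissue around the retina was unevenly represented. The mean log2 level of 24 periocular mesenchyme genes, relative to the Cre-free mean, ran from -3.39 to 1.44 in the Cre libraries and from -2.38 to 0.70 in the Cre-free libraries. The 19 lens genes ran from -3.44 to 5.55 and from -3.25 to 4.27. Marker lists of the tissue border differed between the 2 Six6 genotypes, with a median log2 fold change of 0.18 with Six6 intact and -4.30 with Six6 null for mesenchyme, 5.11 and -5.88 for lens, and -0.18 and -2.16 for blood vessel genes. The labels give no embryo sex; Ddx3y, a Y-linked gene, exceeded 10 CPM in 3 of 6 Cre and 3 of 5 Cre-free libraries. In bulk tissue fewer cells of a type and less RNA per cell cannot be told apart.

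Reads of the transgene and of its target checked the labels. Esr1, whose receptor piece is built into the Cre fusion, was at 53.2, 52.1 and 59.2 CPM (counts scaled to a common library total) in the Six3KO libraries and at 50.7, 61.3 and 50.2 CPM in the DKO libraries. It was at 0.62, 0.35 and 0.38 CPM in the WT libraries and at 0.11 and 0 CPM in the Six6KO libraries, where 1 read was counted in all. Every Cre library thus stood far above every Cre-free library. Esr1 rose by a log2 fold change of 7.45 ± 0.36 (standard error; 6 against 5 libraries; edgeR quasi-likelihood test, Benjamini-Hochberg adjusted p = 8.85e-06). The table counts reads per gene symbol, so the endogenous gene and the fusion cannot be told apart.

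Six3 was at 72.9, 76.0 and 31.4 CPM in the Six3KO libraries and at 57.4, 55.5 and 98.3 CPM in the DKO libraries, the last value belonging to DKO library rh021. The WT libraries held 163, 300 and 223 CPM and the Six6KO libraries 302 and 143 CPM. No Cre library reached a Cre-free library. The log2 fold change was -1.81 ± 0.30, with an edgeR adjusted p of 0.160. An exact permutation test of the Cre labels within each Six6 genotype (two-sided, 200 arrangements) gave p = 0.005, the smallest it can give.

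Six3os1, a non-coding RNA whose exons overlap Six3 on the other strand, stood on the opposite side. It ran from 850 to 1525 CPM in the Cre libraries (median 1337) and from 395 to 714 CPM in the Cre-free libraries, without overlap. Its log2 fold change was 1.17 ± 0.20 (edgeR adjusted p = 0.161; exact permutation p = 0.005). Whether counting used strand was not given in the sources used here, and therefore reads of the overlapping exons of Six3 and Six3os1 cannot be assigned with certainty. Six6 itself, the other deleted gene, was at 224, 341 and 277 CPM in the WT libraries and at 331, 339 and 174 CPM in the Six3KO libraries. The Six6 null libraries still held reads of it, at 129 and 76.9 CPM in Six6KO and at 56.1, 52.2 and 99.9 CPM in DKO, each below every library with Six6 intact. Six6 had a log2 fold change of -0.25 ± 0.26 across the Cre contrast (edgeR adjusted p = 0.882), and its levels overlapped between Cre and Cre-free libraries within each Six6 genotype.

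Of 13251 genes tested, edgeR called 1 higher in the Cre libraries, Esr1 (0.00755%), and 0 lower (0%). At an unadjusted p under 0.05, 461 genes were higher (3.48%) and 414 were lower (3.12%), and DESeq2 called 62 higher (0.468%) and 31 lower (0.234%). Cre and Cre-free libraries did not overlap within either Six6 genotype for 93 genes that were higher in both (0.702%) and for 80 that were lower in both (0.604%). The 2 strata share no library. Across the 13251 genes the log2 fold change of Six3KO against WT and that of DKO against Six6KO had a Pearson correlation of -0.29 and a Spearman correlation of -0.0080, and 50.2% of genes had the same sign. Genes are not independent replicates, so these 3 values are a description.

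Within the strata, edgeR called 1 gene in Six3KO against WT (0.00752%), again Esr1, and 31 genes in DKO against Six6KO (0.233%), of which 22 were higher and 9 lower. The second count rested on single libraries. It was 77 without DKO library rh021, 1 without DKO library rh010 or rh011, 3 without Six6KO library rh007 and 2 without Six6KO library rh020. No gene was called by edgeR for a difference of the Cre effect between the Six6 genotypes, although 1328 of 13292 genes had an unadjusted p under 0.05 and DESeq2 called 241.

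**Figure D1:**
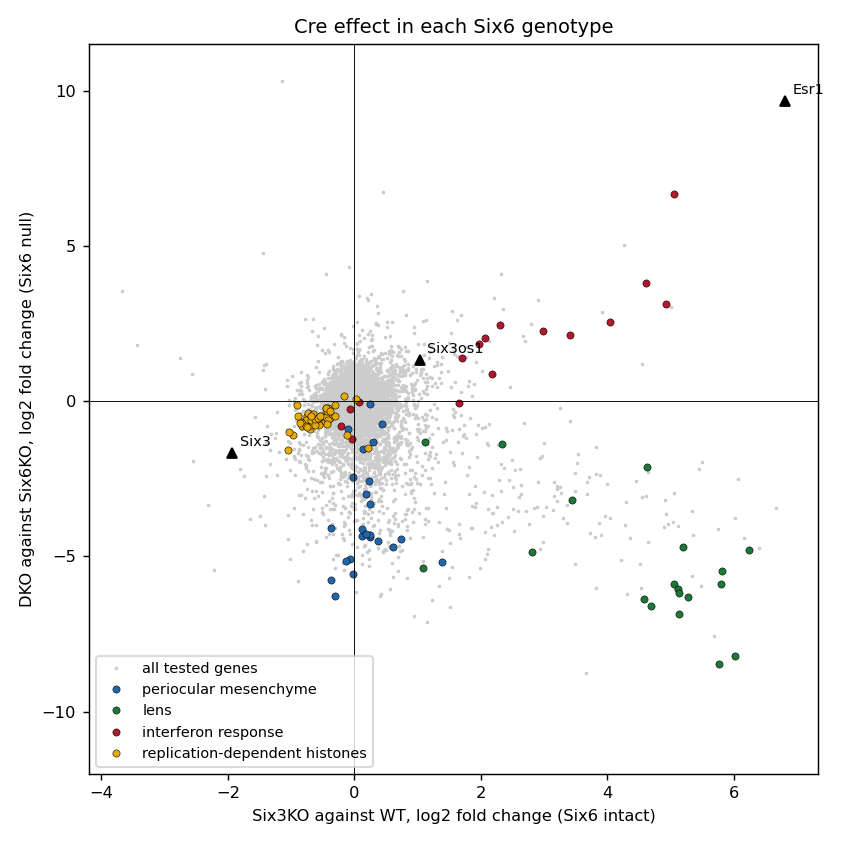
Log2 fold change of Six3KO against WT (horizontal, Six6 intact) and of DKO against Six6KO (vertical, Six6 null) for each of 13251 tested genes, with 4 gene lists coloured. Most interferon response genes lie towards the upper right and most histone genes towards the lower left, while lens genes lie at the lower right and mesenchyme genes below the centre. The vertical place of Esr1 depends on the prior count of the fit, since the Six6KO libraries held 1 read of it.

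Interferon response genes had the highest median among the lists of stress and damage genes. The list of interferon and nucleic acid sensing genes holds 25 genes, of which 16 were tested and 9 were not analysed here. Their median log2 fold change was 1.99, against -0.0030 for all tested genes, with 2.12 at intact Six6 and 1.93 at null Six6. Estimates were above 0 for 13 of 16 members, and 11 of 16 (68.8%) had an unadjusted p under 0.05 in the higher direction, where 3.48% of all genes did. These counts partly restate the filter on low counts, which asked for 3 libraries at the minimum. Isg15, Irf7, Usp18, Ifi27, Ifi35 and Ifih1 passed it only through the Cre libraries, so they had to be higher there. The other 10 members would have passed on either side alone; their median log2 fold change was 1.23, with 7 above 0 and 5 at an unadjusted p under 0.05, all higher. None of the 16 was called by edgeR with all libraries, and 8 were called by DESeq2.

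The level of these genes split the Cre libraries. Of the 16 members, 12 exceeded all 5 Cre-free libraries in each of rh010 and rh011 (DKO) and rh006 and rh026 (Six3KO), and 10 did in rh012 (Six3KO). Over all 13251 genes the share above all Cre-free libraries was 16.2% in rh010, 15.3% in rh011, 5.66% in rh006, 20.5% in rh026 and 12.7% in rh012. The 16 include the 6 members that passed the filter only through the Cre libraries, so the counts of 12 and 10 partly restate the filter. In DKO library rh021 0 of the 16 did (13.6% of all genes), and 5 lay below all Cre-free libraries (12.3% of all genes). Library rh021 carried Esr1 at the level of the other Cre libraries and had the highest Six3 level among them. The mean log2 level of the list, relative to the Cre-free mean, was 2.16, 0.83 and 2.32 in Six3KO libraries rh006, rh012 and rh026, and 2.13, 1.85 and -0.63 in DKO libraries rh010, rh011 and rh021. The Cre-free libraries ran from -0.32 to 0.40.

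Promoter sequence is shown for a pair of these genes because their upstream regions hold runs of the interferon-stimulated response element. The motif searched was GAAANNGAAA, or TTTCNNTTTC on the other strand, in windows of RefSeq from 250 bases before to 50 bases after each gene start (build GRCm38.p6). Of 12 tested interferon list members with a window, 5 held the motif (41.7%), as did 343 of 10155 tested genes with a window (3.38%) and 3.44% of all 32851 windows. The 150 bases before the start are printed 5′ to 3′ on the gene's own strand, which is the minus strand of the genome for both, and capitals mark the motif run.
Isg15, chr4:156200819-156200968: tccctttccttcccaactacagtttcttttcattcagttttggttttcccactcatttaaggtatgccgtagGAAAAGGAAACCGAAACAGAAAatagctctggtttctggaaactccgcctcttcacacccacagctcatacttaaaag
Bst2, chr8:71537473-71537622: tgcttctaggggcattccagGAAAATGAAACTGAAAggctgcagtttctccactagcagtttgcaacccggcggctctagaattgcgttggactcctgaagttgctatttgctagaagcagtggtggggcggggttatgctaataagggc
The Isg15 run begins 78 bases before the start and joins 3 overlapping matches in 22 bases. The Bst2 run begins 130 bases before the start and joins 2 overlapping matches in 16 bases. Among the 33 S phase genes, 1 of 26 with a window held the motif (3.85%). A match of letters is a description and not evidence of binding.

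Irf9, a DNA-binding transcription factor of interferon signalling (chromosome 14, 55603571 to 55610030, GRCm38), ran from 11.51 CPM in rh021 to 49.6 CPM in the Cre libraries, with a median of 39.6, and from 9.97 to 13.9 CPM in the Cre-free libraries. It stood above all Cre-free libraries in 5 of 6, and in DKO library rh021 it lay among them. Its log2 fold change was 1.57 ± 0.35 (edgeR adjusted p = 0.403; exact permutation p = 0.02), and without rh021 it was 1.74 ± 0.20 (edgeR adjusted p = 0.0276). Its exons overlap Rnf31 in the annotation. Irf9 and the other list members given a permutation p were picked by their small edgeR p in these libraries. For them the permutation p is therefore no independent support. Isg15, a ubiquitin-like protein that is attached to other proteins during the response, was scarce. The 6 Cre libraries held 126 reads of it and the 5 Cre-free libraries 4 reads in all, so the fitted log2 fold change of 4.21 ± 0.91 depends on the prior count (edgeR adjusted p = 0.380; exact permutation p = 0.02).

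Other members were chosen for naming after their values were seen. Bst2, a membrane protein that tethers viruses, was at 13.6, 4.81 and 16.3 CPM in the Six3KO libraries, at 15.4, 11.4 and 0.63 CPM in the DKO libraries, and between 0.46 and 1.93 CPM in the Cre-free libraries. Usp18, the protease that removes ISG15, was at 10.9, 1.83 and 5.44 CPM in the Six3KO libraries, at 12.9, 7.37 and 0 CPM in the DKO libraries, and at no more than 0.25 CPM in the Cre-free libraries, which held 6 reads. Ifih1 and Ddx58 encode the cytoplasmic RNA sensors MDA5 and RIG-I. Ifih1 reached 9.63 CPM in the Cre libraries (median 6.81) and 1.61 CPM in the Cre-free libraries, with a log2 fold change of 2.68 ± 0.65, and that of Ddx58 was 1.93 ± 0.72. Irf7, which amplifies interferon production, held 139 reads in the Cre and 4 in the Cre-free libraries. Irf3, an upstream activator, had a log2 fold change of -0.14, so not every member had a raised estimate.

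**Figure D2:**
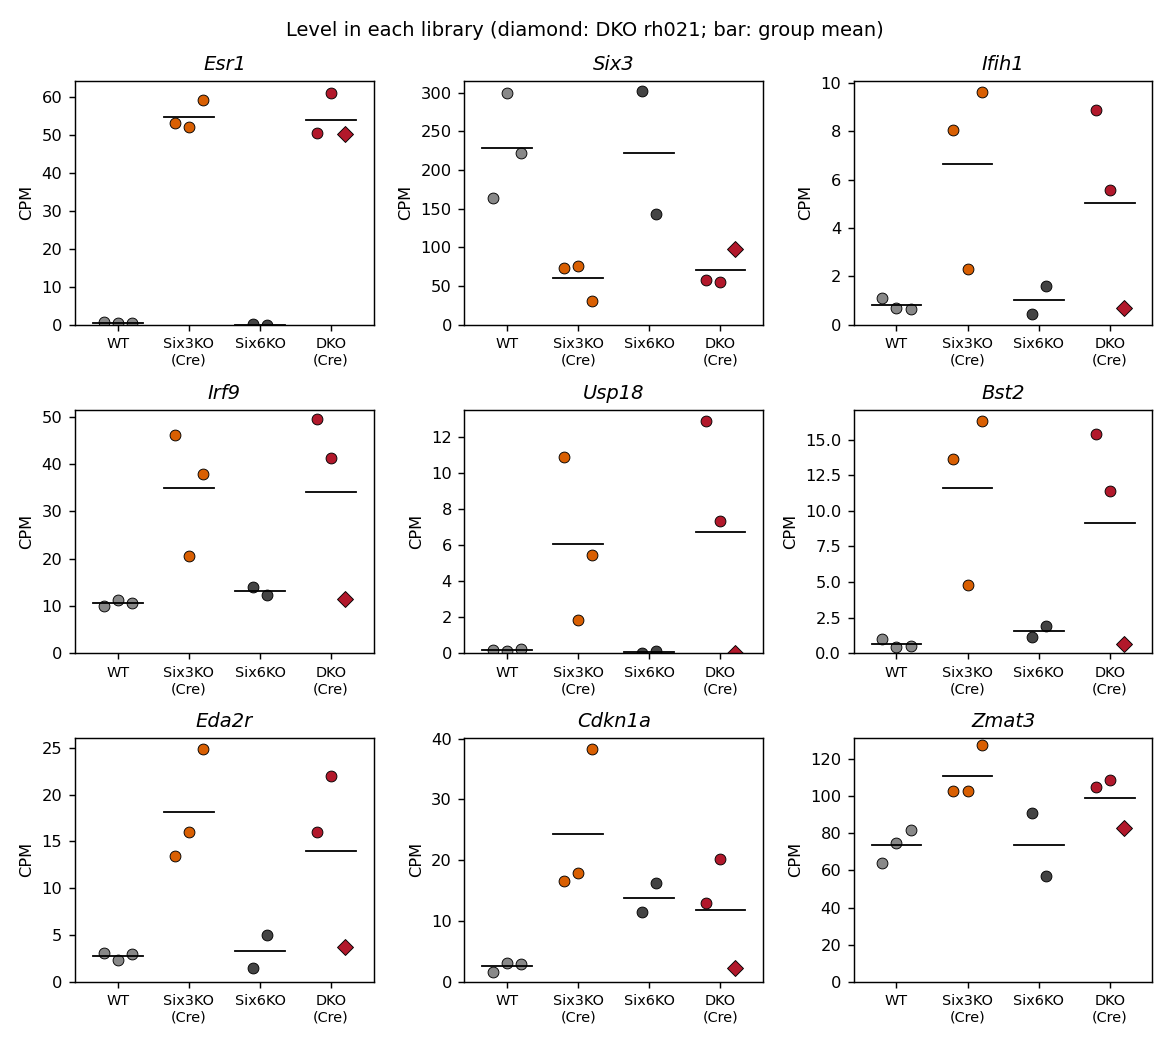
CPM of 9 genes in each of the 11 libraries, by group, with group means as bars; the diamond is DKO library rh021. Esr1 is high in all 6 Cre libraries, while Ifih1, Irf9, Usp18, Bst2 and Eda2r are high in 5 of them and lie at the Cre-free level in rh021.

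A second list of 43 interferon-stimulated genes, added after the first had been examined, gave 25 tested genes, and its named members were chosen after their values were seen. Of these 23 had estimates above 0, and the median log2 fold change was 0.67. An unadjusted p under 0.05 in the higher direction was found for 12 (48%), where 3.48% of all genes had it. Mx2, Oas1b and Rtp4 passed the filter only through the Cre libraries; the other 22 had a median of 0.44, with 9 at an unadjusted p under 0.05 in the higher direction. Parp12, an antiviral mono-ADP-ribosyltransferase, was at 19.3, 8.84 and 13.3 CPM in the Six3KO libraries, at 20.1, 17.4 and 4.68 CPM in the DKO libraries and between 2.97 and 5.36 CPM in the Cre-free libraries. Lgals3bp, a secreted glycoprotein, ran from 1.03 CPM in rh021 to 14.5 CPM (median 12.7), against 1.16 to 1.71 CPM without Cre. Genes of antigen presentation were uneven, with log2 fold changes of 1.04 for Tap1, 0.46 for Tapbp, 0.16 for B2m and 0.11 for H2-K1. In DKO library rh021, 0 of the 25 members exceeded all Cre-free libraries, against 9 to 19 in the other Cre libraries. Over all genes that share was 13.6% in rh021 and 5.66% to 20.5% in the others. The counts include Mx2, Oas1b and Rtp4, so they partly restate the filter. A further list, also added later, held interferon genes, not analysed here, and their receptors. Its 6 tested receptor and kinase genes had a median log2 fold change of -0.02, from -0.12 for Ifngr1 to 0.09 for Jak1.

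Leaving out DKO library rh021 changed the calls. edgeR then called 14 of 13239 genes higher (0.106%) and 0 lower. They included Esr1, Irf9, Bst2, Eda2r, Usp18, Oasl2, Erbb4, Parp12, Stx3, Oas1b, Cttnbp2, Lgals3bp and Irf7. Of the 14, 6 belong to the first interferon list and 3 to the second. Usp18, Irf7 and Oas1b among them passed the filter of the full fit only through the Cre libraries. All 14 were also called by DESeq2 with all libraries, which is not independent because the data are the same. The choice of rh021 rests on leaving out each library in turn, and no other single library raised the count above 2. Library rh021 is also the Cre library with the lowest interferon score, -0.63. More interferon calls without it therefore follow in part from that choice.

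Markers of macrophages and microglia also had higher estimates with Cre. Of 17 tested markers, 15 had estimates above 0, with a median log2 fold change of 0.92 and no edgeR call. In the higher direction 8 (47.1%) had an unadjusted p under 0.05, where 3.48% of all genes did. Lyz2, Spi1 and Trem2 passed the filter only through the Cre libraries, and 7 of the other 14 had such a p. The markers summed to 75.6 to 193 CPM in the Cre libraries and to 40.3 to 133 CPM in the Cre-free libraries. No tested marker was at 0 CPM in any library. Their mean log2 level relative to the Cre-free mean was 1.38, 1.27 and 0.13 in DKO libraries rh010, rh011 and rh021, 1.04 in Six3KO library rh026, 0.58 in rh006 and 0.20 in rh012. Libraries rh021 and rh012 were the lowest Cre libraries both on these markers and on the interferon score, where they stood at -0.63 and 0.83. Among Cre-free libraries Six6KO rh020 was highest on both, at 0.87 for these markers and 0.40 for the interferon score. Cx3cr1, the fractalkine receptor of microglia, was named after its values were seen. It ran from 10.8 CPM in rh021 to 27.4 CPM with Cre (median 15.4) and from 6.83 to 15.7 CPM without, so the groups overlapped. Cx3cr1 exceeded all Cre-free libraries in 3 of 6 Cre libraries. Of other markers named after their values were seen, Aif1 and Laptm5 did so in 5 and C1qc in 2. With the macrophage score as a covariate, a setting added after the data were seen, the median of the first interferon list was 1.07, with 5 members higher and 3 lower at an unadjusted p under 0.05. That of the second was 0.21, with 3 higher and 1 lower. In that fit 6.28% of all genes were higher and 7.81% lower at such a p. The part of these cells in the interferon values was not otherwise tested.

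**Figure D3:**
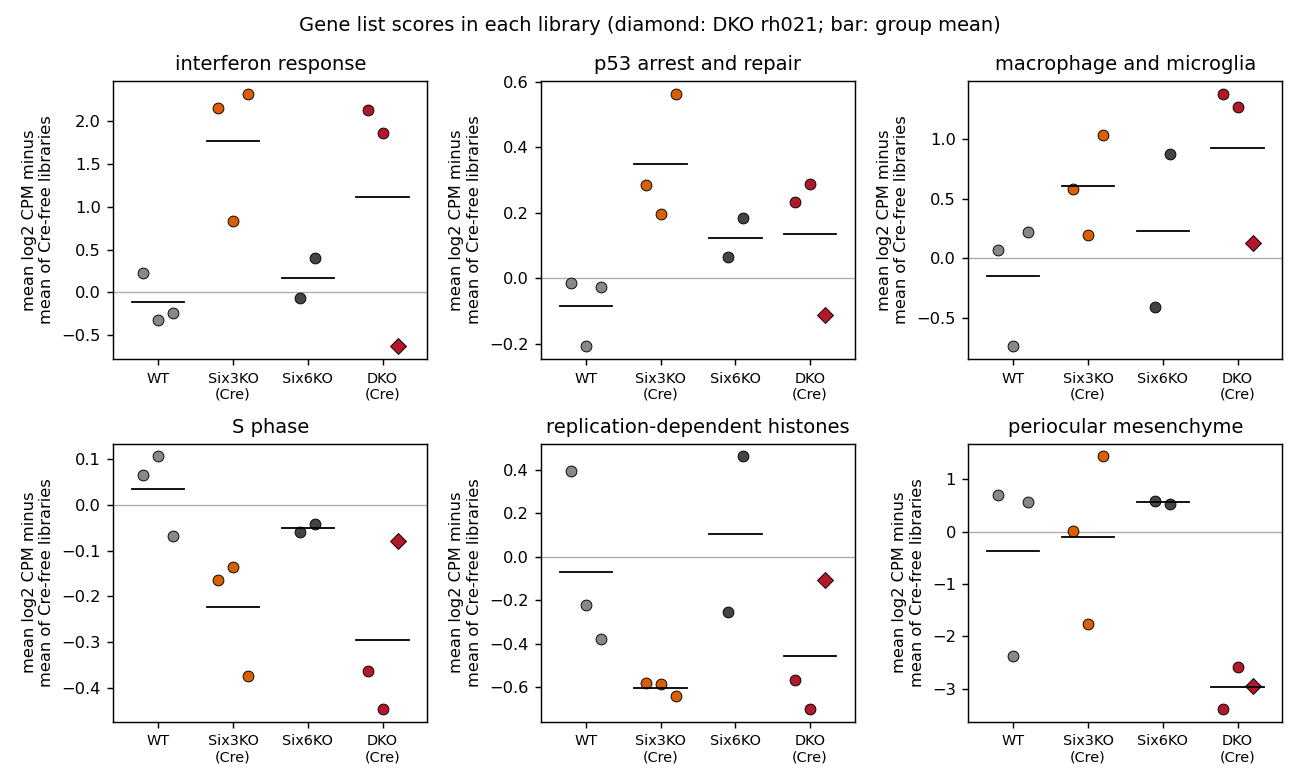
Mean log2 CPM of the members of 6 gene lists in each library, relative to the mean of the Cre-free libraries, by group, with group means as bars; the diamond is DKO library rh021. The interferon score is 0.83 to 2.32 in 5 Cre libraries and -0.63 in rh021, and the S phase score of every Cre library lies below all Cre-free libraries. The histone score does so in 5 Cre libraries, while rh021 (-0.10) lies above 3 Cre-free libraries. The mesenchyme score is low in all DKO libraries, in WT library rh023 (-2.38) and in Six3KO library rh012 (-1.76).

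Targets of p53 gave a smaller and less even shift. Of 20 tested arrest and repair targets, 16 had estimates above 0, with a median log2 fold change of 0.16 (0.17 at intact and 0.10 at null Six6). In the higher direction 5 (25%) had an unadjusted p under 0.05, where 3.48% of all genes did. Of 14 tested apoptosis targets, 10 lay above 0, with a median of 0.07 (0.15 at intact and -0.07 at null Six6, on opposite sides of 0). None of the 34 was called by edgeR with all libraries.

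Eda2r, a receptor of the tumour necrosis factor family and a p53 target, was the member of either p53 list with the smallest p. It was at 13.4, 16.1 and 24.9 CPM in the Six3KO libraries and at 16.0, 22.0 and 3.73 CPM in the DKO libraries. The WT libraries held 3.11, 2.32 and 2.93 CPM and the Six6KO libraries 1.48 and 5.03 CPM. As for Irf9, 5 Cre libraries stood above all Cre-free libraries and rh021 did not. The log2 fold change was 2.42 ± 0.47 (edgeR adjusted p = 0.306; exact permutation p = 0.015), and without rh021 it was 2.62 ± 0.31 (edgeR adjusted p = 0.0295).

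Pmaip1, which encodes the death protein NOXA, ran from 1.19 CPM in rh021 to 8.27 CPM with Cre (median 4.26) and from 0.46 to 2.26 CPM without. Its log2 fold change was 1.65 ± 0.49 (edgeR adjusted p = 0.548; exact permutation p = 0.02). Zmat3, an RNA-binding p53 target, ran from 82.7 to 128 CPM (median 104) against 57.0 to 90.9 CPM, with a log2 fold change of 0.52 ± 0.14 and an exact permutation p of 0.015. Sesn2, which restrains growth signalling under stress, had 0.67 ± 0.20 (exact permutation p = 0.015), and Ccng1, cyclin G1, had 0.72 ± 0.26 (exact permutation p = 0.045). For each of Pmaip1, Zmat3, Sesn2 and Ccng1, 5 of 6 Cre libraries exceeded every Cre-free library. The library that did not was rh021 each time.

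Cdkn1a and Mdm2, the best known p53 targets, were named after their values were seen. Cdkn1a, the cell cycle inhibitor p21, was at 16.5, 18.0 and 38.3 CPM in the Six3KO libraries and at 1.56, 3.13 and 2.93 CPM in the WT libraries. With Six6 null it was at 12.9, 20.2 and 2.30 CPM in the DKO libraries and already at 11.525 and 16.2 CPM in the Six6KO libraries. The log2 fold change was 3.25 at intact and -0.23 at null Six6, and the difference of the Cre effect had an unadjusted p of 0.00562, which edgeR did not call after adjustment. Mdm2, which limits p53, had a log2 fold change of 0.14 ± 0.07. Siva1, another apoptosis target, lay on the other side with -0.36 ± 0.12 (exact permutation p = 0.03).

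The lists of DNA repair and of the death machinery stayed near 0. Of 33 DNA break signalling and repair genes, 21 had estimates below 0, with a median of -0.06. In the lower direction 2 (6.06%) had an unadjusted p under 0.05, where 3.12% of all genes did. Without rh021 there were 4, where the share of all genes was 3.34%. H2afx, the histone variant that is phosphorylated at DNA breaks, ran from 207 to 270 CPM with Cre (median 227) and from 274 to 305 CPM without. The groups did not overlap, and the log2 fold change was -0.35 ± 0.08 (edgeR adjusted p = 0.403; exact permutation p = 0.01). Chek1, the replication checkpoint kinase, had -0.25 ± 0.10 and Brca1, a repair protein, -0.21 ± 0.10. The 24 tested genes of the apoptosis machinery had a median of -0.02 with 0 members at an unadjusted p under 0.05, and the members with the smallest p, Hrk, Casp2 and Birc3, had log2 fold changes of 0.86 ± 0.41, -0.13 ± 0.07 and -0.97 ± 0.53. For Birc3, an inhibitor of cell death, the estimate was -0.04 at intact and -2.13 at null Six6.

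Other stress programmes had medians below 0. The 18 genes of the integrated stress and unfolded protein response had a median log2 fold change of -0.05 (0.0075 at intact and -0.23 at null Six6). That of the 12 heat shock genes was -0.07 and that of the 6 tested estrogen receptor response genes -0.19 (-0.11 and -0.29), with no edgeR call. Only Hspa8, a constitutive chaperone, had an unadjusted p under 0.05 among these 36, at -0.31 ± 0.13. Nrip1, a cofactor of the estrogen receptor, was at 0.16 ± 0.10 and Igfbp4, a growth factor binding protein, at -0.41 ± 0.21, with Esr1 reads in every Cre library.

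Genes of DNA replication had slightly lower estimates with Cre throughout. All 33 S phase genes had estimates below 0, with a median log2 fold change of -0.23 (-0.28 at intact and -0.25 at null Six6). An unadjusted p under 0.05 was reached by 13 (39.4%), where 3.12% of all genes were lower, and none was called by edgeR. Cdc6, which loads the replicative helicase, ran from 33.1 to 42.6 CPM with Cre (median 36.7) and from 44.3 to 51.2 CPM without, and no Cre library reached a Cre-free one. Its log2 fold change was -0.36 ± 0.09 (edgeR adjusted p = 0.422; exact permutation p = 0.01).

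Gins2 and Gins3 belong to the GINS complex of the replication fork. Gins3 ran from 18.4 to 22.9 CPM with Cre (median 20.8) and from 24.2 to 27.6 CPM without, again without overlap, with a log2 fold change of -0.31 ± 0.08 (edgeR adjusted p = 0.467; exact permutation p = 0.005). Gins2 had -0.50 ± 0.13 (exact permutation p = 0.015), and its exons overlap Gse1. The number of the 33 genes below every Cre-free library was 29, 31 and 3 in DKO libraries rh010, rh011 and rh021 and 8, 10 and 24 in Six3KO libraries rh006, rh012 and rh026. Over all genes that share was 13.7%, 13.9% and 12.3% in the DKO libraries and 6.51%, 11.3% and 12.8% in the Six3KO libraries, so the 3 genes in rh021 are no more than its background. Without rh021, 21 of the 33 had an unadjusted p under 0.05 in the lower direction (3.34% of all genes). With the macrophage covariate 6 of the 33 did (7.81% of all genes), and the median was -0.13.

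Replication-dependent histone genes, a group added with its named members after the data were seen, had lower estimates than the S phase list. Of 56 tested genes of the clusters, 55 had estimates below 0, with a median log2 fold change of -0.58. In the lower direction 47 (83.9%) had an unadjusted p under 0.05, where 3.12% of all genes did. edgeR called none and DESeq2 called 10. Hist2h4, which encodes histone H4, was at 91.8, 98.7 and 82.1 CPM in the Six3KO libraries, at 95.2, 88.9 and 127 CPM in the DKO libraries, at 169, 130 and 115 CPM in the WT libraries and at 130 and 176 CPM in the Six6KO libraries. Between 42 and 48 of the 56 lay below every Cre-free library in each Cre library other than rh021, and 3 did in rh021. The shares of all genes on this measure are those given for the S phase list, and the count in rh021 is again no more than its background. Members of the same histone family are close in sequence, so the reads of single members are uncertain and the group is the safer unit. Hist1h2al had the largest fold change among the members named, -1.27 ± 0.19 (edgeR adjusted p = 0.118), and is a processed pseudogene in the annotation. Without rh026 (Six3KO) and rh020 (Six6KO), the 2 libraries apart on the first principal component, the median was -0.42 and 14 of 56 had an unadjusted p under 0.05 (4.13% of all genes were lower).

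Mitotic genes had estimates nearer to 0. Of 26 tested, 25 had estimates below 0, with a median of -0.11. In the lower direction 2 (7.69%) had an unadjusted p under 0.05, where 3.12% of all genes did. Without rh021 the count was 7 (3.34% of all genes) and the median -0.17. With the macrophage covariate they were 0 (7.81% of all genes) and -0.03. With all libraries the median was -0.23 at intact and 0.00053 at null Six6, so with Six6 null the list did not sit below 0. Aurkb and Birc5, a kinase and a partner of the chromosomal passenger complex, had log2 fold changes of -0.21 ± 0.09 and -0.21 ± 0.09, and Ndc80, of the kinetochore, had -0.25 ± 0.12.

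**Figure D4:**
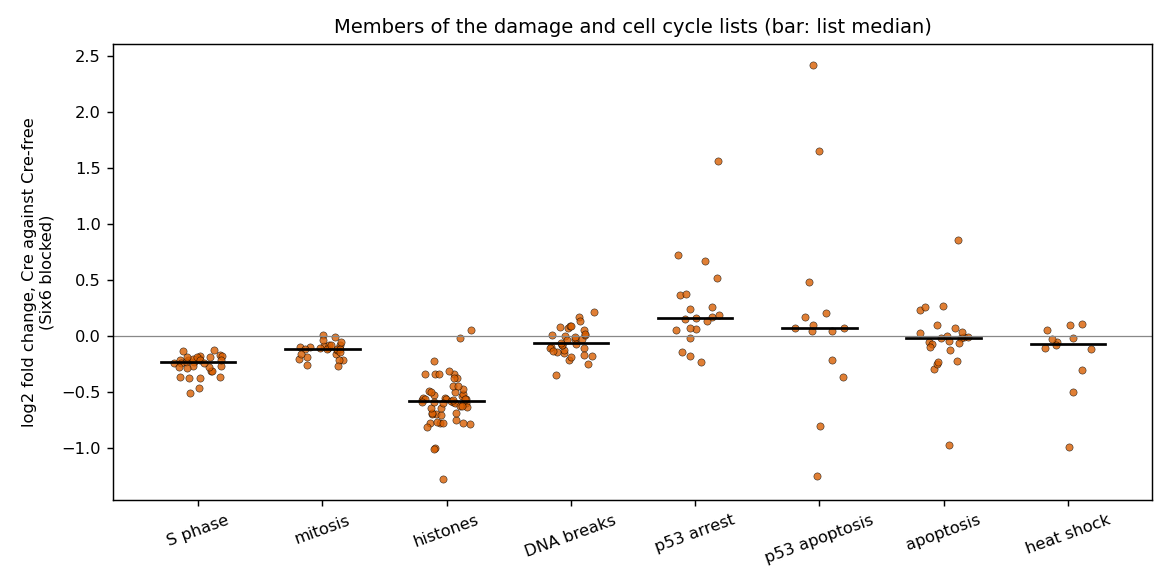
Log2 fold change of Cre against Cre-free libraries, with Six6 blocked, for each tested member of 8 lists, and the list median as a bar. S phase, mitosis and histone members lie almost wholly below 0, with medians of -0.23, -0.11 and -0.58. The DNA break, p53, apoptosis and heat shock lists have members on both sides of 0, with medians from -0.07 to 0.16. Eda2r and Pmaip1 stand highest among the p53 apoptosis targets.

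Among 22 G1 cyclins and cell cycle inhibitors the median was -0.03. Ccnd1, cyclin D1 of retinal progenitors, was at 955, 1172 and 520 CPM in the Six3KO libraries, at 211, 202 and 585 CPM in the DKO libraries, at 1442, 2289 and 1089 CPM in the WT libraries and at 1323 and 637 CPM in the Six6KO libraries. The DKO libraries lay below both Six6KO libraries, and the Six3KO libraries overlapped the WT libraries. The log2 fold change was -1.18 ± 0.37 (edgeR adjusted p = 0.573; exact permutation p = 0.03). Cdk6, its kinase partner, had -0.73 ± 0.27 (exact permutation p = 0.065), and Btg1, an antiproliferative gene, had 0.35 ± 0.10 (exact permutation p = 0.01).

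Genes of Hedgehog signalling, in which Sonic hedgehog from ganglion cells acts on progenitors, were listed and named after the data were seen. Of 14 tested, 5 (35.7%) had an unadjusted p under 0.05 in the lower direction, where 3.12% of all genes did, and 1 in the higher. The median log2 fold change was -0.12. Shh passed the filter on low counts only through the Cre-free libraries, so it had to be lower with Cre. Of the other 13, 4 had such a p in the lower direction. Shh, the ligand, held 34 reads in the Cre libraries and 137 in the Cre-free libraries, with a log2 fold change of -2.68 ± 0.55 (edgeR adjusted p = 0.343). Gli1, its transcriptional readout, was at 14.5, 28.4 and 22.2 CPM in the Six3KO libraries, at 0.25, 1.15 and 6.67 CPM in the DKO libraries, at 56.8, 111 and 34.9 CPM in the WT libraries and at 56.3 and 18.9 CPM in the Six6KO libraries. Each Cre group lay below its own control group. The feedback receptor Ptch1 had -0.65 ± 0.23, and the inhibitor Hhip had -1.22 ± 0.34. In rh021 Gli1 lay below all Six3KO libraries.

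Some genes stood apart in all 6 Cre libraries, rh021 included, and were named after their values were seen. Stx3, a membrane fusion protein, was at 24.5, 31.3 and 33.6 CPM in the Six3KO libraries, at 40.3, 42.3 and 30.3 CPM in the DKO libraries and between 14.6 and 22.3 CPM in the Cre-free libraries, with a log2 fold change of 0.83 ± 0.13 (edgeR adjusted p = 0.145). Cttnbp2, a cortactin-binding neuronal protein, had 0.88 ± 0.14 and Nwd2 3.16 ± 0.54. Mvk, an enzyme of sterol synthesis, ran from 19.5 to 24.1 CPM with Cre and from 29.9 to 35.4 CPM without, with -0.50 ± 0.08 (edgeR adjusted p = 0.160). Erbb4, a receptor for neuregulins, was at 34.6, 35.9 and 32.4 CPM in the Six3KO libraries and 13.2, 17.8 and 16.6 CPM in the WT libraries, and at 126, 153 and 77.0 CPM in the DKO libraries against 36.1 and 30.2 CPM in the Six6KO libraries. Within each Six6 genotype the groups of Erbb4 did not overlap, and its log2 fold change was 1.44 ± 0.20 (edgeR adjusted p = 0.118).

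The genes around Six3 were examined because every Cre library carries the deletion there. Of 13 tested genes whose start lies within 1 Mb of the Six3 start on chromosome 17, 8 had estimates above 0. The named neighbours were chosen after their values were seen. Camkmt, a lysine methyltransferase gene that starts at -523.1 kb from the Six3 start, was at 16.8, 18.2 and 11.7 CPM in the Six3KO libraries, at 18.8, 24.1 and 16.6 CPM in the DKO libraries and between 8.33 and 10.8 CPM in the Cre-free libraries. No Cre library overlapped a Cre-free one, and the log2 fold change was 0.86 ± 0.15 (edgeR adjusted p = 0.170). Prepl, which starts next to Camkmt on the other strand, had 0.19 ± 0.07, and Six2, the nearest family member, had -0.43 ± 1.02, with 1.44 at intact and -2.60 at null Six6.

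**Figure D5:**
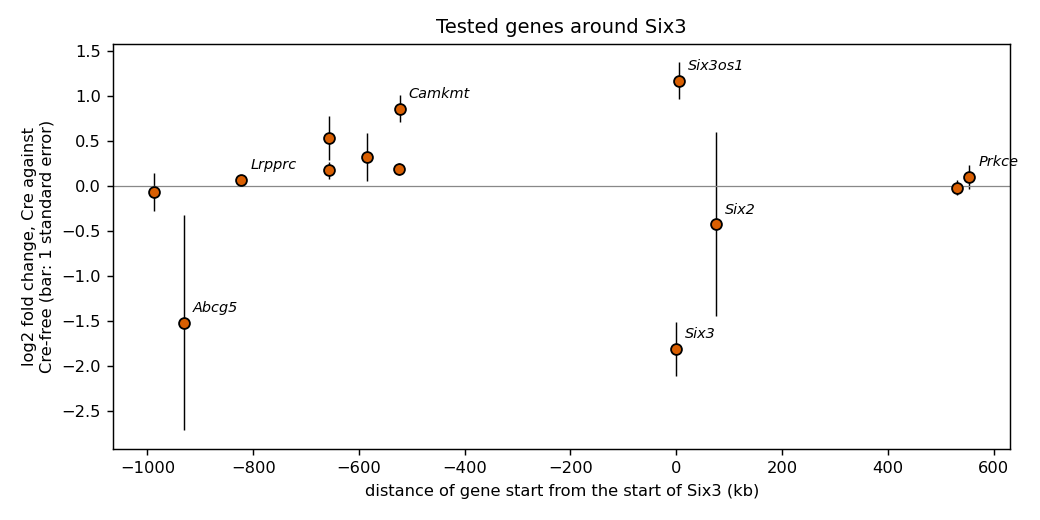
Log2 fold change with its standard error for the 13 tested genes within 1 Mb of the start of Six3, against the distance of their starts from it in kb. Six3 lies at -1.81, Six3os1 at 1.17 and Camkmt at 0.86, and the other 10 genes lie between -1.52 and 0.53.

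Genes of retinal cell fate gave no edgeR call in the blocked comparison, and for several the estimates differed between the Six6 genotypes. Otx2, the transcription factor of photoreceptor precursors, ran from 78.6 to 87.6 CPM in the Six3KO libraries against 89.0 to 104 CPM in the WT libraries, and from 25.9 to 30.5 CPM in the DKO libraries against 54.7 and 79.7 CPM in the Six6KO libraries. The log2 fold changes were -0.19 and -1.27, and edgeR did not call the difference after adjustment (unadjusted p = 0.000492). Rbpms, an RNA-binding protein of ganglion cells, had -0.27 and -1.37, and Tfap2c, a transcription factor of amacrine cells, 0.36 and 3.06. In DKO against Six6KO, edgeR called Otx2, Rbpms and Tfap2c (adjusted p = 0.0270, 0.0297 and 0.0336). They were among the 31 calls of that comparison, a count that rested on single libraries. Hes1, the Notch effector that keeps progenitors undifferentiated, was more even, at -0.47 and -0.31, with a blocked log2 fold change of -0.39 ± 0.11 (edgeR adjusted p = 0.475). Over the 23 retinal progenitor genes the median was -0.11, over 24 neurogenic and Notch genes -0.15, over 10 photoreceptor precursor genes -0.56 and over 21 ganglion cell genes -0.0086.

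The macrophage covariate moved the medians of other lists, and turned some. With it the median was 0.20 for retinal progenitor genes, 0.21 for neurogenic and Notch genes and 0.13 for G1 cyclins and inhibitors, each on the other side of 0. DNA break genes had 0.00089, and ganglion cell genes, 22 of them tested in that fit, turned to 0.42 with 6 higher at an unadjusted p under 0.05. Over all genes in that fit 6.28% were higher and 7.81% lower at such a p, against which the counts here are to be read. Photoreceptor precursor genes stayed below 0 at -0.14, and Hedgehog genes at -0.21 with 3 lower. The median was 0.12 for p53 arrest targets, with 3 higher, and 0.01 for p53 apoptosis targets. It was -0.19 for the unfolded protein response list, with 3 lower, and 3 heat shock genes were lower. Histone genes had -0.59, with 42 of 56 lower. With the mesenchyme covariate instead, the p53 arrest median was 0.18, with 9 of 20 higher. The S phase median was then -0.31, with 20 of 33 lower. In that fit 392 of 13292 genes were higher and 384 lower at an unadjusted p under 0.05. With mesenchyme and lens covariates the histone median was -0.52, with 28 of 56 lower, where 250 of 13292 genes were lower.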

How the data were processed

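The authors deposited raw counts of reads for each gene symbol in 1 table whose columns are the libraries. Per the submitters' processing notes, reads were trimmed with Trim Galore 0.3.7, aligned with TopHat2 2.0.13 to mm10 and counted with HTSeq 0.6.1; Cufflinks 2.2.1 and Cuffdiff are named too. The annotation and strand setting were not given in the sources used here. Libraries were made after ribosomal RNA removal, per the labels' protocols.

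Counts were fitted in R 4.3.3 with edgeR 4.0.16 (filterByExpr with a minimum count of 10, TMM scaling, robust quasi-likelihood) with a term for Six6 genotype and a term for Cre. A fit with 4 group means gave the strata (13292 genes) and the difference between them. A gene was called at an adjusted p (Benjamini-Hochberg, over all genes) under 0.05; other genes are given as values. Standard errors were taken from the F statistic of each test. CPM values use TMM-scaled library sizes, and list scores use log2 CPM with a prior count of 2. For 34 genes the Cre labels were also permuted exactly within each Six6 genotype, and 22 had p under 0.05. Apart from Esr1, Six3, Six3os1 and Six6, these genes were the list members with the smallest edgeR p in the same libraries. Their permutation p-values and the count of 22 therefore partly restate that choice and are no independent support. The permutation p-values are not adjusted. DESeq2 1.42.0 and limma 3.58.1 (voom with sample weights) were alternatives, with other scaling, no filter, no Six6 term, mesenchyme, lens, macrophage and sex covariates, and each library left out in turn. The fit was tested on simulated data.

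Replicate pairs all differed beyond sampling noise of counts, with chi-square values of 9.72 to 77.3 per degree of freedom. The p-values measure the spread between libraries. Depth bounds the precision of genes with few reads. Named genes were Esr1, Six3, Six3os1 and Six6, then up to 12 called genes of each direction, and the 3 members of each pathway list with the smallest p; other names were chosen after their values were seen. The comparison, lists and rules were chosen with earlier results of these data known. Positions come from GENCODE vM21 (GRCm38), which matched 13152 of 13251 symbols (99.3%), and 34 of 104 named genes overlap exons of another gene. Some genes are not reported here.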

Additional observations from a re-analysis of the deposited data

Results flagged for a closer look

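Among 270 sets of values (named genes, list scores and total reads, each in the Cre and in the Cre-free libraries), 19 held 1 library far from the others of its side by Dixon's gap criterion. Chance flags about 1 in 20 groups, and the causes were not tested.

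On the Cre side, DKO library rh021 was highest for Chek1 (72.1 CPM), Hist2h3b (94.7 CPM), Hist2h4 (127 CPM) and the histone score (-0.10). Six3KO library rh026 was highest for Ebf2 (26.1 CPM), Igfbp4 (239 CPM) and Pdia4 (230 CPM).

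On the Cre-free side, WT library rh016 was highest for Cdo1 (48.3 CPM), Chek1 (86.4 CPM) and total reads (12505379). WT library rh024 was highest for Cx3cr1 (15.7 CPM), a microglial receptor. WT library rh023 was lowest for Sesn2 (6.95 CPM) and for the scores of estrogen response (-0.76), ciliary margin (-1.21), Wnt feedback (-1.16), periocular mesenchyme (-2.38) and blood vessel genes (-3.11). Six6KO library rh020 was highest for C1qc (12.3 CPM), a macrophage complement gene, and lowest for the amacrine and horizontal cell score (-0.37).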

How the results depend on the processing

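Of 2389 log2 fold changes (104 named genes under 23 alternatives), 2385 kept their sign. The 4 reversals were Dkk2 with a mesenchyme covariate (from -2.44 to 0.0013), and Olig2 (-0.66 to 0.019), Six6 (-0.25 to 0.22) and Slc7a11 (1.05 to -0.53) with the macrophage covariate, which was added after seeing the data. None of these 4 genes was called by edgeR with all libraries. Esr1 was called in all 23. The blocked comparison called 93 genes by DESeq2, 2 by limma-voom with sample weights and 3 with equal weight for both Six6 genotypes, against 1; leaving out each library in turn gave 1 to 14. It called 14 without DKO rh021, and 2 without Six3KO rh026, WT rh023 or WT rh024. Six3KO against WT called 18 by DESeq2. DKO against Six6KO called 671 by DESeq2 and 682 in a fit of those groups alone, against 31, and 1 to 77 with each library left out. The difference between Six6 genotypes called 241 by DESeq2 and 0 to 3 with each library left out. Scaling alternatives moved the median of all genes by at most 0.013. No paired analysis was possible because the table's columns name a group and a library and give no replicate number. Genes with few reads, such as Isg15, Irf7 and Usp18, have folds limited by depth.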
